A study of Mus musculus with 18 samples.

Results

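Ccl25 encodes the chemokine CCL25, also called TECK, and Ccr9 encodes CCR9, its signalling receptor. The pair was selected on measured values, namely the log2 ratios of older to 1 month mice in these same arrays, so the values against 1 month are given as a description with no test. The gene-name column of the scanner files held 1 probe named Ccl25 and 0 named Ccr9. A match of each probe's RefSeq accessions added a second Ccl25 probe (A_52_P326713, carried under the accession of the TECK mRNA) and 1 Ccr9 probe (A_52_P30312, carried under a clone name and described as chemokine receptor 10, an old name of the gene). The 2 genes, of 15940 that could be named on the arrays, were thus measured by 3 of the 41174 probes that are not controls.

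The RNA came from thymocytes of C57BL/6 mice, with no genetic change or drug treatment named. Agilent 2-colour arrays, 9 in all, each compared a mouse of 6, 16 or 24 months, labelled with the green dye Cy3 (n = 3 mice an age), with a 1 month reference labelled with the red dye Cy5. The series' design describes that reference as a pool, while the sample labels number 9 reference samples, and it was treated as 1 control. The dyes were never exchanged, so older age against 1 month and Cy3 against Cy5 cannot be told apart, whereas comparisons between 6, 16 and 24 months all lie within Cy3. The thymi had been pulled apart and strained through mesh, the cells washed to remove fat cells, and the red cells lysed with ammonium chloride. All 10 thymocyte markers examined passed the filter on dim probes, and the probe used for Thy1 was saturated on 8 arrays. Of the 27 thymic epithelial genes with a probe 26 passed that filter too, as did 37448 of the 41174 probes. Whether a lower signal reflects fewer cells of a type or less RNA per cell cannot be told apart in such bulk RNA.

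CCL25 is made in the thymus by epithelial cells of cortex and medulla, and outside it by the epithelium of the small intestine. FOXN1, the transcription factor that directs thymic epithelial development, is a known activator of Ccl25. CCR9 is a Gi-coupled receptor that sits on most CD4+ CD8+ double-positive thymocytes and on part of the progenitors that seed the thymus. E proteins, transcription factors that bind E-boxes, and Notch signalling are known regulators of Ccr9.

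The sequence in front of each gene's RefSeq start sites (build GRCm38.p6) is shown because FOXN1 and the E proteins bind DNA at promoters. The RefSeq table gave Ccl25 2 start sites, 24378 bases apart, and Ccr9 1. Capitals mark GACGC, the core of the FOXN1 motif, in the Ccl25 windows and CANNTG, the E-box, in the Ccr9 window. Each window holds the 250 bases before a start site, on the plus strand. 
Ccl25 first start, chr8:4324960-4325209: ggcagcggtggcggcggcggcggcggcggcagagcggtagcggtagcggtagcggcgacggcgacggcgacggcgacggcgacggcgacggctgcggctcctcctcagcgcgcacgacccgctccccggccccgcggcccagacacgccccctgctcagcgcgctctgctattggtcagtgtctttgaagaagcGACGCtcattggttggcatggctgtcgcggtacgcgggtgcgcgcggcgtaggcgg
Ccl25 second start, chr8:4349338-4349587: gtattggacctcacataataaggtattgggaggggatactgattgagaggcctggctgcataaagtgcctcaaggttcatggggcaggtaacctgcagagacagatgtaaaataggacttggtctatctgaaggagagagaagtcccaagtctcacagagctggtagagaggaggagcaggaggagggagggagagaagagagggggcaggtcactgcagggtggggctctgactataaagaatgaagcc
Ccr9 start, chr9:123766961-123767210: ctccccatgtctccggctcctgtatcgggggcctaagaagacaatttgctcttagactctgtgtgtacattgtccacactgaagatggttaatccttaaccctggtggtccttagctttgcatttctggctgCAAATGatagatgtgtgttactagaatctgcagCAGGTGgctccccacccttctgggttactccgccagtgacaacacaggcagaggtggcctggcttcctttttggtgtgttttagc
GACGC, searched on both strands, occurred 1 time before the first Ccl25 start, 56 bases upstream of it, and 0 times in the second window. It occurred in 22.6% of 32851 such windows of all genes. CANNTG, searched the same way, occurred 2 times before the Ccr9 start, 118 and 85 bases upstream, and in 66.2% of all windows. No match overlapped another, and these matches describe the letters of the windows only.

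Ccl25 was lower in all 9 older mice than in the 1 month reference. On its brighter probe (A_51_P161265), log2 ratios of older to 1 month were -2.37, -2.17 and -1.79 at 6 months. They were -1.79, -2.02 and -2.03 at 16 months. At 24 months they were -1.15, -1.75 and -1.58. The 9 ratios lay well below 0, and the 24 month mice sat closest to it. The means were -2.11 ± 0.30, -1.94 ± 0.14 and -1.49 ± 0.31 (SD, n = 3 each), which correspond to 4.31-fold, 3.84-fold and 2.82-fold higher signal at 1 month. Among 37448 probes tested, Ccl25 had the lowest mean ratio at 16 months. At 6 months 4 probes were lower, those of the calprotectin genes S100a9 and S100a8 and 2 of the haemoglobin gene Hbb-bt. At 24 months 3 probes were lower, S100a9, S100a8 and the neutrophil granule gene Camp. These lower probes are named because of their rank, after their values were seen.

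**Figure D1:**
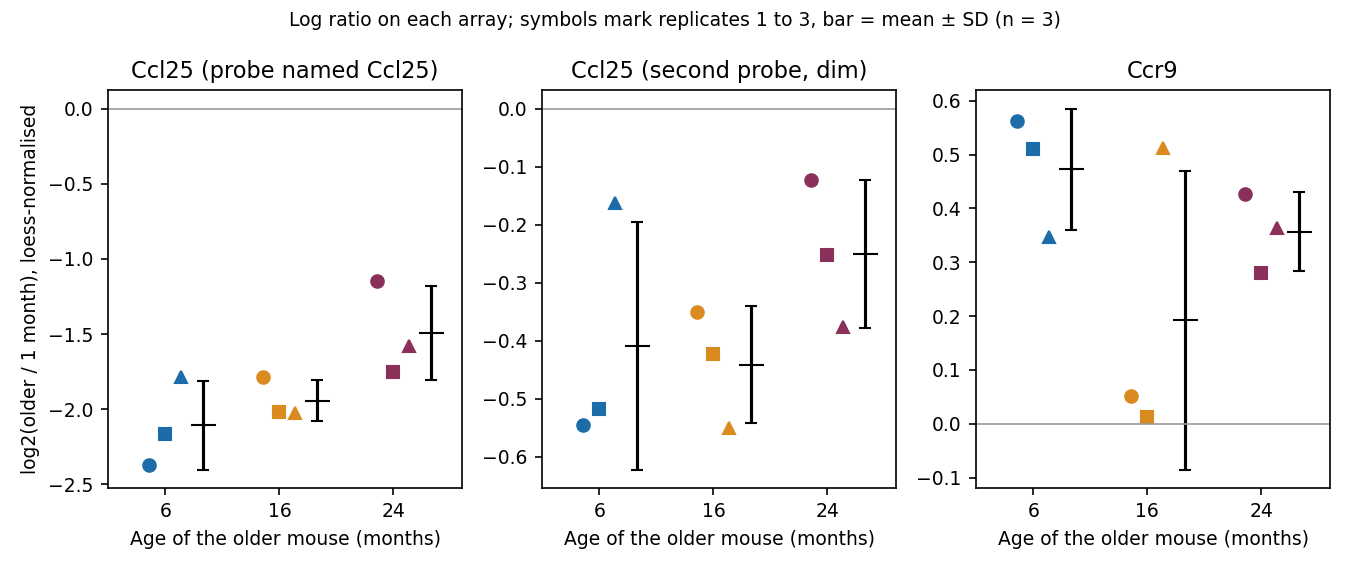
Log2 ratio of the older mouse to the 1 month reference on each array for the 3 probes, by age in months; each panel has its own vertical scale, symbols mark replicates 1 to 3, and bars give the mean ± SD (n = 3). The brighter Ccl25 probe lies between -2.37 and -1.15 on all 9 arrays, its 24 month points lie above the others, and Ccr9 lies above 0.

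The scanner software's own processed intensities showed where the difference lay. In Cy3, Ccl25 read 1505, 1401 and 1636 at 6 months. It read 2024, 1837 and 1878 at 16 months. It read 3841, 1003 and 2782 at 24 months. The Cy5 spots of the same 9 arrays read from 5396 to 9326, so no older mouse reached the 1 month range. The lowest values of both channels came from replicate 2 of the 24 month mice, the dimmest array in Cy3, where 79.6% of probes stood well above background in that channel. On these processed values the mean log2 ratios were -2.43 ± 0.27, -2.20 ± 0.17 and -1.81 ± 0.59 (SD, n = 3 each). On that scale replicate 2 at 24 months (-2.43) lay below all 16 month mice, so the ages overlapped.

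The second Ccl25 probe was dim and gave a smaller difference. Its log2 ratios were -0.55, -0.52 and -0.16 at 6 months. At 16 months they were -0.35, -0.42 and -0.55, and at 24 months -0.12, -0.25 and -0.38. All 9 lay below 0, as for the brighter probe, and the ages overlapped. The means were -0.41 ± 0.21, -0.44 ± 0.10 and -0.25 ± 0.13 (SD, n = 3 each). In Cy3 it stood well above background on 8 of 9 arrays, the exception being replicate 2 at 24 months. With median centring in place of loess its 24 month mean was 0.20, of the other sign.

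Among the older ages, the Ccl25 ratio was closest to the reference at 24 months, by an amount that did not pass the test across all probes. These differences come from the same ratios that chose the pair, so their intervals and p-values are not independent of that choice. On the loess scale the 24 month ratios exceeded every 6 month and 16 month ratio, but with median centring, as on processed signals, the ages overlapped (-2.71 in replicate 2 at 24 months, -2.50 to -2.12 at 16 months). The difference of 24 from 6 months was 0.61 on the log2 scale (SE 0.18, 95% interval 0.21 to 1.02, a ratio of 1.53) with a limma adjusted p of 0.50. The difference of 24 from 16 months was 0.45 (95% interval 0.04 to 0.86, limma adjusted p = 0.91), and that of 16 from 6 months 0.17 (95% interval -0.24 to 0.57, limma adjusted p = 0.83). With median centring the differences of 24 months from 6 and 16 months were 0.36 and 0.18. Without replicate 1 of the 24 month mice, the highest of the 9, the differences of 24 months from 6 and 16 months were 0.44 and 0.28. The second probe gave 0.16 for 24 against 6 months (95% interval -0.10 to 0.41, limma adjusted p = 0.72), with overlapping mice.

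No probe of any gene passed in these comparisons. In 16 against 6 months, 24 against 6 months and 24 against 16 months, limma called 0% of probes lower and 0% higher at an adjusted p under 0.05. Unadjusted p fell under 0.05 for 3008, 3190 and 1645 of 37448 probes. By size of difference, the brighter Ccl25 probe ranked 260 in 24 against 6 months and 181 in 24 against 16 months.

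Ccr9 lay closer to the 1 month reference than the brighter Ccl25 probe did, and above it on the loess scale. Its log2 ratios were 0.56, 0.51 and 0.35 at 6 months. At 16 months they were 0.05, 0.01 and 0.51, and at 24 months 0.43, 0.28 and 0.36. All 9 lay above 0 on that scale, 2 of them by 0.05 and 0.01. The means were 0.47 ± 0.11, 0.19 ± 0.28 and 0.36 ± 0.07 (SD, n = 3 each), and without replicate 3 the 16 month mean was 0.03. With median centring the means were -0.21, -0.46 and -0.74, so the direction of Ccr9 against 1 month depended on the scaling. Ccr9 is bright, and the 1000 tested probes nearest to it in intensity had median log2 ratios of -0.65, -0.64 and -1.09 at the 3 ages under median centring, against 0.01, -0.03 and -0.03 under loess. Relative to those neighbours, Ccr9 stood 0.44, 0.18 and 0.35 higher under median centring. The same comparison put the brighter Ccl25 probe at -2.07, -1.93 and -1.52 relative to its own neighbours. Loess also takes out the trend with intensity, so values relative to neighbours largely repeat the loess scale. They are not separate evidence on the direction of Ccr9.

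No difference of Ccr9 between the older ages passed the test. Its log2 difference was -0.28 for 16 against 6 months (SE 0.13, 95% interval -0.57 to 0.01, limma adjusted p = 0.63). That difference was -0.44 without replicate 3 at 16 months (adjusted p = 0.10) and -0.03 with the arrays' mean haemoglobin ratio as a covariate. It was -0.12 for 24 against 6 months (95% interval -0.40 to 0.17, limma adjusted p = 0.82) and 0.16 for 24 against 16 months (95% interval -0.12 to 0.45, limma adjusted p = 0.91). The mice of the ages overlapped in all 3 comparisons. With median centring the difference of 24 from 16 months was -0.28, and with the haemoglobin covariate that of 24 from 6 months was 0.05, each of the other sign.

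The 1 month channel varied less from array to array than the older one for both genes. Over the 9 arrays, the Cy5 level of the brighter Ccl25 probe had an SD of 0.11 on the log2 scale and that of Ccr9 0.04, against a median of 0.11 over all probes. Within an age, the Cy3 level had a pooled SD of 0.32 for Ccl25 and 0.17 for Ccr9, against a median of 0.15. The within-age SD of the log ratio was 0.26 for Ccl25, larger than that of 94.0% of probes, and 0.18 for Ccr9, larger than that of 85.3%. The mean Cy3 level of Ccl25 was 8.42 ± 0.25 at 6 months, 8.62 ± 0.04 at 16 months and 9.10 ± 0.49 at 24 months (log2 level, SD, n = 3 each). For Ccr9 it was 12.75 ± 0.10, 12.46 ± 0.27 and 12.57 ± 0.04. The Ccl25 level varied most among the 24 month mice and the Ccr9 level among the 16 month mice.

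**Figure D2:**
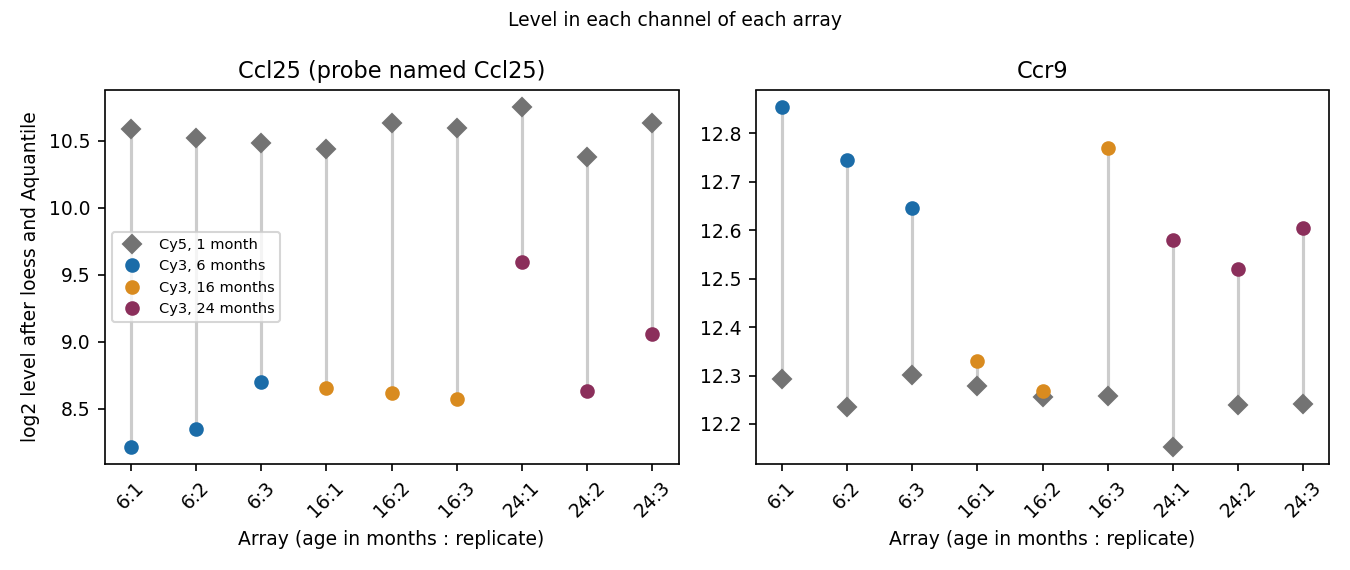
Log2 level in each channel of each array after loess and between-array scaling, for the brighter Ccl25 probe and for Ccr9; grey diamonds are the Cy5 1 month reference, coloured circles the Cy3 older mouse, and arrays are named by age in months and replicate. Ccl25 reads 10.38 to 10.75 in every reference spot and lower in every older mouse, while Ccr9 reads 12.15 to 12.30 in the reference and sits close to its own reference spot in 2 of the 16 month mice.

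Against 1 month, limma called 7.67% of probes lower and 8.94% higher at 6 months, 11.4% and 13% at 16 months, and 11.5% and 9.92% at 24 months, which is the background for the gene counts that follow. Lower probes made up 46.2%, 46.8% and 53.8% of these calls. Without background subtraction those shares were 57%, 54.5% and 65.1%, and at 16 months they were 36.6% on processed signals and 58.6% with median centring.

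Of the other ligands that draw cells to the thymus or hold them there, 8 were tested and 2 passed the test. Kitl, the stem cell factor that supports early progenitors, fell by 0.32, 0.62 and 0.64 on the log2 scale at 6, 16 and 24 months (limma adjusted p = 0.022, 0.0015 and 0.0015). Cxcl12, the ligand of CXCR4, fell by 0.25 at 6 and 0.25 at 16 months (limma adjusted p = 0.013 and 0.0075) and read -0.12 at 24 months (adjusted p = 0.11). These were the lower calls, 2, 2 and 1 of 8 at the 3 ages, with 0 higher. The CCR7 ligand Ccl19 read -0.05, 0.52 and 0.57 and did not pass (limma adjusted p = 0.91, 0.20 and 0.18). Its dimmer probe read -0.15 at 16 months. Ccl21c, the other CCR7 ligand measured, read 1.29 in replicate 1 at 24 months and between -0.19 and 0.16 in the other 8 mice, and is named because of that spread. Il7, the survival cytokine, read within 0.05 of 0 in each age mean, on a dim probe that was well above background in 5 of 9 Cy3 spots, which limits what that ratio can show. The list's median was -0.08, -0.00 and 0.03, against -0.01 for all probes at each age. With median centring it was -0.45, -0.27 and -0.33, against -0.04, -0.06 and -0.08 for all probes.

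Receptors of thymocytes for other chemokines and adhesion signals showed more higher calls, 2, 4 and 4 of 14 tested at 6, 16 and 24 months, and 1, 0 and 2 lower ones. Cxcr6, a receptor of memory and tissue-resident lymphocytes, was higher by 2.54 at 16 months and 1.30 at 24 months (limma adjusted p = 0.0011 and 0.012). Selplg, the P-selectin ligand that progenitors use to enter the thymus, was higher by 0.60, 0.81 and 0.64, with the sign turned at 24 months (-0.25) under median centring. Cxcr4, which retains thymocytes in the cortex, was higher by 0.55 at 6 and 0.38 at 24 months, again with the sign turned at 24 months (-0.40) under median centring. Its dimmer probe was higher by 0.58, 0.59 and 0.62 at 6, 16 and 24 months (limma adjusted p = 0.013, 0.0076 and 0.0074). Ccr2 was higher by 0.65 at 16 and 0.57 at 24 months, and Cxcr3 by 0.72 at 16 months. The CXCL12 scavenger Ackr3 fell by 0.20 at 6 and 0.15 at 24 months, and S1pr1, the egress receptor, fell by 0.15 at 24 months. Ccr7 and Ackr4, the scavenging receptor for CCL25 and the CCR7 ligands, did not pass at any age. Ackr4 read 0.28, 0.07 and 0.13 (limma adjusted p = 0.12, 0.68 and 0.42). The list's median was 0.06, 0.08 and 0.15, and of the other sign with median centring (-0.02, -0.10 and -0.06).

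Thymic epithelial genes, which mark the cells that make CCL25, were lower at 6 and 16 months in part. Of 26 tested, limma called 7 lower at 6 months, 6 at 16 months and 2 at 24 months, and 0, 0 and 3 higher. Prss16, a cortical epithelial protease, read -1.31, -0.99 and -0.76 at 6 months, -0.88, -1.05 and -1.01 at 16 months, and -0.44, -0.73 and -0.72 at 24 months. It was below 0 in all 9 mice and least so at 24 months, with means of -1.02, -0.98 and -0.63 (limma adjusted p = 0.0019, 8.6e-04 and 0.0040). A dimmer second Prss16 probe read 0.03, -0.01 and -0.01. Tbata, a thymic stromal protein, read -0.81, -0.88 and -0.49 in the mean, below 0 in all 9 mice (limma adjusted p = 0.0022, 7.2e-04 and 0.0053).

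The simple-epithelium keratin Krt18 read -1.17 at 6 months and -0.86 at 16 months (limma adjusted p = 0.0031 and 0.0043) but -0.09 at 24 months (adjusted p = 0.67). Krt8, its partner, read -0.41, -0.34 and -0.04 (limma adjusted p = 0.025, 0.034 and 0.82), and its dimmer probe read 0.04 at 24 months. Both keratins were above 0 in 1 mouse, replicate 1 at 24 months, with 0.43 for Krt18 and 0.35 for Krt8. That is also the mouse with the highest Ccl25, Prss16 and Ccl21c ratios. Without it, 4 epithelial genes were called lower at 24 months. Without replicate 1, 2 or 3 at 6 months, 3, 3 and 4 were called at that age, and without replicate 2 or 3 at 16 months, 3 and 3. Over all probes, calls in both directions fell from 8034 to 2348 at 24 months without replicate 1. In the same fits they fell from 6219 to 2074, 491 and 4400 at 6 months, and from 9124 to 2568 and 5055 at 16 months. With all arrays, the other lower epithelial calls were Trp63, Aire and Eya1 at 6 months and Eya1 and Ctsl at 16 months. Dll4, the Notch ligand of cortical epithelium, was higher by 0.18 at 24 months (limma adjusted p = 0.037). So were the adherens protein gene Cdh1 by 0.44 and Fezf2, a medullary regulator, by 0.19 (limma adjusted p = 0.046 and 0.049). Both were dim, well above background in 8 and 7 of 9 Cy3 spots, and Cdh1 was below 0 in 1 of the 3 mice of 24 months. The summed Cy3 level of the list ran from 11466 to 12106 at 6 months, 10480 to 11872 at 16 months and 11478 to 13959 at 24 months, with 11401.5 to 13401 in Cy5. Bright genes weigh most in this linear sum. Ctsl had a mean log2 intensity of 12.28, against 7.41 for Prss16, 7.59 for Tbata and 8.66 for Krt18, so the sum says little about those genes.

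Foxn1 itself read 0.00, -0.01 and -0.04 in the mean, and its 9 mice lay between -0.10 and 0.07 (limma adjusted p = 0.97, 0.86 and 0.52). Psmb11, which encodes the beta5t subunit of the cortical thymoproteasome, was well above background in 8 of 9 reference spots and in 0 of 9 older mice. Its signal read 1.17-fold, 1.13-fold and 1.08-fold higher at 1 month. The older level was taken as the higher of its own signal and the dimmest detected probe of the array. These are ratios near the floor and not a firm lower bound, and Psmb11 did not pass the filter on dim probes. The sign of every epithelial call was the same with processed signals, with median centring and without background subtraction. The list's median was -0.07, -0.06 and 0.02. With median centring it was -0.21, -0.215 and -0.14, of the other sign at 24 months.

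Between the older ages, most epithelial genes, like Ccl25, read higher at 24 months. Of 26, 25 read higher at 24 than at 6 months, with a median difference of 0.14 against -0.01 over all probes, and 0 passed the test, as 0% of all probes did. Krt18 differed by 1.08 (limma adjusted p = 0.44), Prss16 by 0.39 (adjusted p = 0.54) and Tbata by 0.32 (adjusted p = 0.54). With median centring 19 of 26 read higher, with a median of 0.09 against -0.04 over all probes. Without replicate 1 at 24 months, 20 of 26 read higher on the loess scale, with a median of 0.09. Against 16 months, 21 of 26 read higher at 24 months, with a median of 0.10, but 15 of 26 did with median centring and 17 of 26 without replicate 1 at 24 months. Higher readings at 24 than at 6 months were not particular to epithelial genes. On the loess scale 12 of 13 macrophage and dendritic cell genes (median 0.17) and 7 of 7 erythroid genes (median 0.11) read higher. The other lists ran from 0 of 8 granulocyte genes to 6 of 8 B cell genes.

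**Figure D3:**
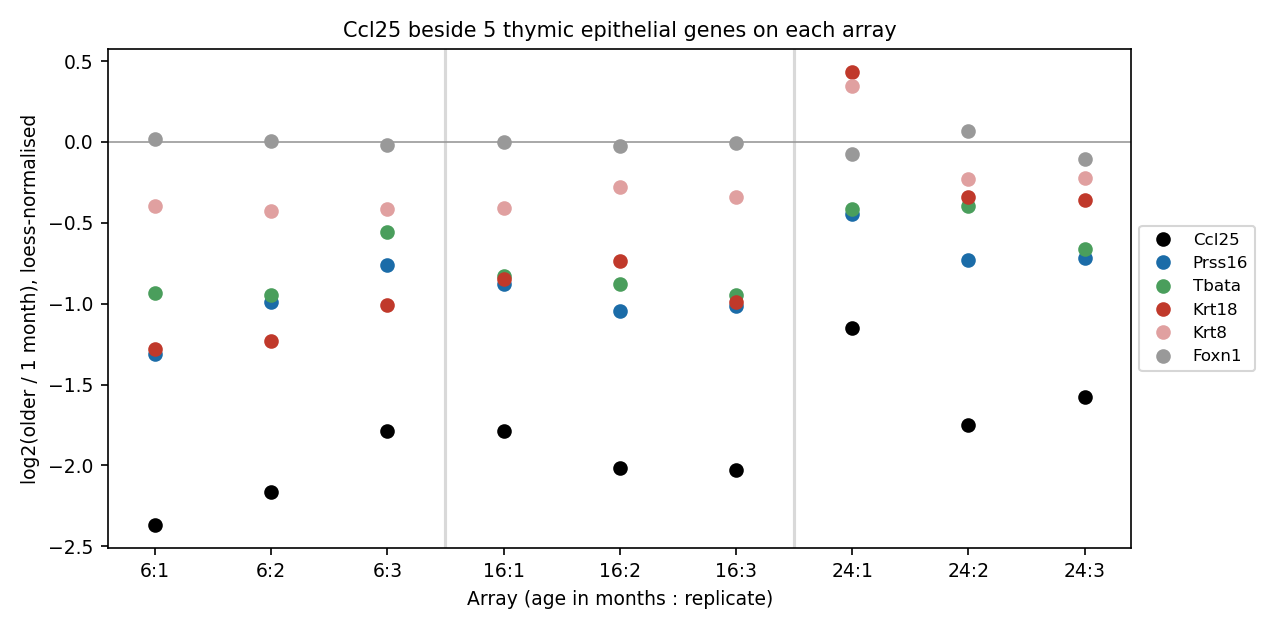
Log2 ratio of the older mouse to the 1 month reference on each array for Ccl25 and 5 thymic epithelial genes; arrays are named by age in months and replicate. Ccl25 is the lowest gene on all 9 arrays, replicate 1 at 24 months is the highest for Ccl25, Prss16, Krt18 and Krt8, and Foxn1 stays between -0.10 and 0.07.

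The genes whose ratios followed Ccl25 most closely over the 9 arrays included the epithelial protease gene Prss16. By Pearson correlation over those arrays, which share 1 reference and hold 3 ages, the first 5 genes for the brighter Ccl25 probe included Prss16 (r = 0.96), Slc7a5 (0.95), Olfr1440 (0.95) and Prxl2b (0.95). After each age's mean was taken out, the correlations were 0.93, 0.90, 0.89 and 0.92. Prxl2b read -0.69, -0.51 and -0.23 in the age means. For the second Ccl25 probe the first 5 were Treml4, Mpzl2, Otp, Angpt1 and Tbata, with r from 0.96 to 0.91. For Ccr9 they were Camk4 (r = 0.96), a calcium-dependent kinase of thymocytes, Ugt2b1, Spred2, Dapk1 and Tgif2, down to r = 0.94. Camk4 read 0.05, -0.36 and -0.09 in the mean. Since these genes were picked as the highest among all probes, their r has no p.

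**Figure D4:**
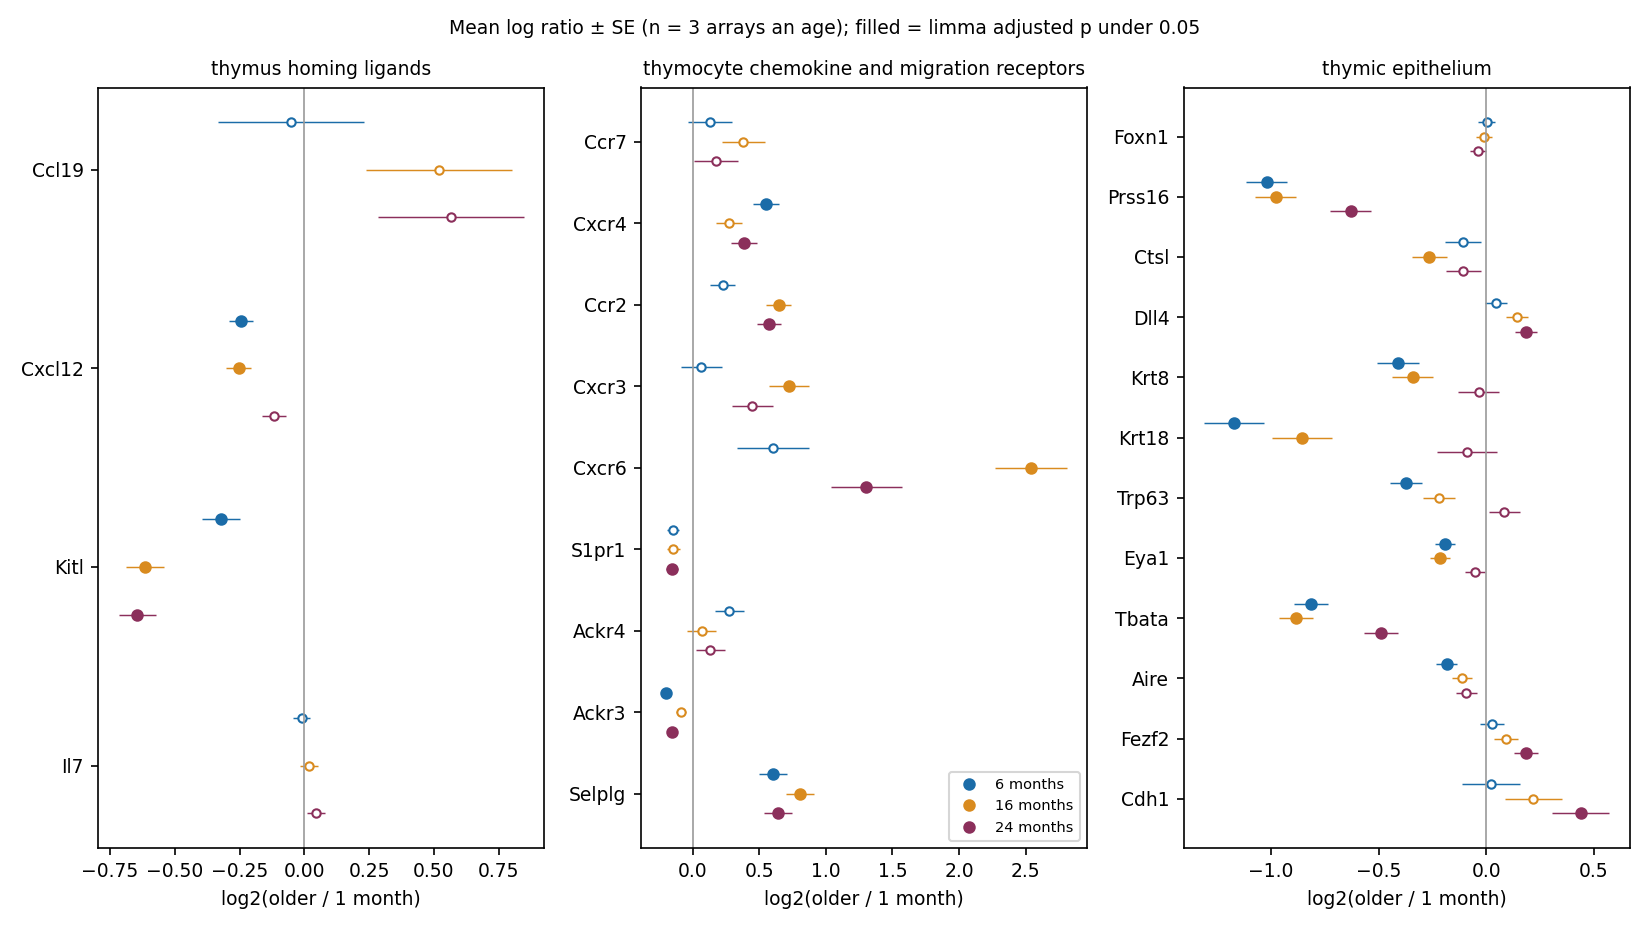
Mean log2 ratio of older to 1 month mice with its SE (limma fit, n = 3 arrays an age) for those of the other homing ligands, the receptors and the thymic epithelial genes that passed the test at any age or were always to be named; filled circles passed a limma adjusted p under 0.05 and colours give the age. Kitl, Prss16 and Tbata lie below 0 at all 3 ages, Krt18 lies near 0 at 24 months, and Cxcr6 reaches 2.54 at 16 months.

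Genes that carry the signal of chemokine receptors inside the cell gave 4 higher and 3 lower calls of 29 at 6 months, 6 and 3 at 16 months, and 7 and 4 at 24 months. Gnb2, a G protein beta subunit, was higher by 0.88, 1.07 and 1.02 (limma adjusted p = 0.0195, 0.00635 and 0.0087), and the GTPase Rac2 by 0.34, 0.39 and 0.35, with Rac2 of the other sign at all 3 ages under median centring (-0.31, -0.24 and -0.69). Msn, the actin linker moesin, was higher by 0.37, 0.31 and 0.24 at 6, 16 and 24 months, of the other sign at 24 months (-0.16) under median centring. Another Msn probe had the other sign at 6 months. At 24 months Coro1a, an actin regulator, was higher by 0.50, of the other sign (-0.81) under median centring. Elmo1, which acts with DOCK2, fell by 0.43 at 6 and 0.49 at 24 months, although other Elmo1 probes had the other sign. Rgs10, a regulator of G protein signalling, fell by 0.29, 0.54 and 0.25. Gnai2, the main Gi subunit of lymphocytes, did not pass at any age. The list's median was 0.02, 0.03 and -0.01, but -0.36, -0.32 and -0.71 with median centring.

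Among gut-homing and egress genes, 1, 3 and 1 of 11 were higher and 0, 0 and 1 lower. Itgb1 was higher by 0.41, 0.47 and 0.31, of the other sign at 24 months (-0.18) under median centring. Itgb7, which pairs with Itga4 to bind gut vessels, was higher by 0.72 at 16 months, as was Itgal by 0.27, of the other sign (-0.15) under median centring. S1pr1 was the lower call at 24 months. The list's median was 0.01, 0.18 and 0.04, and of the other sign with median centring (-0.42, -0.22 and -0.48).

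Double-positive thymocyte genes, the class that carries most CCR9, gave 5, 7 and 5 higher and 1, 2 and 3 lower calls of 17. Cd8a fell by 0.35, 0.45 and 0.43 (limma adjusted p = 0.0079, 0.0017 and 0.0023). Cd2 was higher by 0.56, 0.70 and 0.61, Ly6d by 0.66, 0.53 and 0.45, and Satb1 by 0.38, 0.33 and 0.46, with another Satb1 probe of the other sign at 16 and 24 months. Under median centring Ly6d and Satb1 had the other sign at all 3 ages and Cd2 at 24 months (-0.02). The probes used for Cd8b1 and Dntt were saturated on all 9 arrays, and both genes are counted without a value. Other Dntt probes were saturated on 0 arrays, and their ratios are not reported here. Cd8b1 is among the higher calls at all 3 ages and Dntt at 16 months. Over all probes, saturated spots numbered 46 to 133 an array in Cy5 and 0 to 17 in Cy3. A signal capped in Cy5 makes the ratio of older to 1 month read too high, so the direction of these calls is uncertain. Of E protein and Notch regulators, 5, 6 and 7 of 18 were higher and 0 lower. Bcl11b was higher by 1.02, 0.87 and 0.84, Myb by 0.85, 0.52 and 0.83, and Tcf7 by 0.41, 0.35 and 0.45. Id3, an inhibitor of E proteins, was higher by 0.35 at 6 and 0.42 at 24 months, and Gata3 by 0.39 at 16 and 24 months. Under median centring Myb had the other sign at 16 and 24 months, Tcf7 at all 3 ages, and Id3 and Gata3 wherever they passed. Another Myb probe had the other sign at 16 and 24 months. Dtx1, a Notch target, was higher by 0.85 at 16 months. The E protein genes Tcf3 and Tcf12 did not pass at any age. The medians were 0.09, 0.10 and 0.13 for the double-positive genes and 0.19, 0.09 and 0.21 for the regulators. With median centring both lists had the other sign at all 3 ages. Their medians were then -0.38, -0.42 and -0.79 for the double-positive genes and -0.24, -0.22 and -0.48 for the regulators.

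Markers of other cell types also differed between arrays. The mean log2 ratio of 5 haemoglobin probes was -1.76, -1.77 and -1.12 at 6 months, 1.94, 1.36 and -0.63 at 16 months, and -1.72, 0.46 and 1.38 at 24 months. The 24 month mouse with the highest Ccl25 ratio thus had a haemoglobin ratio like those of the 6 month mice. With that ratio as a covariate, Ccl25 read -2.16, -1.90 and -1.48 in the mean at the 3 ages. The summed Cy3 level of 7 erythroid genes ran from 3158 to 5114 at 6 months, 7521 to 72570 at 16 months and 3522 to 38661 at 24 months, against 12104 to 13324 in Cy5. Of the 7, Hbb-bh1 passed, lower by -0.14 at 6 months.

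Of 8 granulocyte genes, S100a8 read -2.27 at 6 months, and S100a8 and S100a9 read -2.47 and -3.35 at 24 months (limma adjusted p = 0.048, 0.031 and 0.026), the list's 1, 0 and 2 lower calls. Their list's summed Cy3 level ran from 1846 to 2380, 1824 to 19489 and 1443 to 2440 at the 3 ages, against 5411 to 6786 in Cy5. Of 10 thymocyte markers, 4 were higher and 1, Cd8a, lower at each age. Cd3g, a subunit of the T cell receptor complex, was higher by 0.38, 0.51 and 0.41 and the kinase Lck by 0.28, 0.38 and 0.33, both of the other sign at all 3 ages under median centring. Thy1 is among the 4 higher markers at each age, but the probe used was saturated on 8 arrays. The direction of that call is uncertain for the same reason as for Cd8b1. Another Thy1 probe was saturated on 0 arrays, and its ratios are not reported here.

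Of 8 B cell genes, 3 were higher at 16 months and 0 passed at the other ages. Among them were Blnk by 1.04 and Cd79b by 0.60. Of 13 macrophage and dendritic cell genes, Adgre1 fell by 0.21 at 6 months, Lyz2 was higher by 0.97 and Siglech by 0.11 at 16 months, and Xcr1 was higher by 0.21 at 24 months, of the other sign (-0.56) under median centring. Of 12 fibroblast and endothelial genes, Dcn, a matrix proteoglycan, was higher by 1.40 at 16 and 1.38 at 24 months. Pecam1 was higher by 0.24 at 16 months and Cdh5 by 0.18 at 6 and 0.19 at 24 months, with another Cdh5 probe of the other sign. Of 7 adipocyte genes, Adipoq was higher by 0.19 and Lep by 0.13 at 24 months, Lep of the other sign (-0.10) under median centring. The summed Cy3 levels at the 3 ages ran from 2688 to 2902, 3241 to 4422 and 2658 to 3713 for B cells, with 2536 to 2922 in Cy5. For macrophages and dendritic cells they ran from 5982 to 6430, 7967 to 13156 and 7221 to 14183, with 6653 to 7563 in Cy5. The part of these cell types in the Ccl25 and Ccr9 values was not tested.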

How the data were processed

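Spot intensities were measured on 9 Agilent 2-colour arrays. Per the file headers, the deposited processed intensities came from Feature Extraction 7.5.1, with background subtracted and dyes normalised; the submitters' processing notes give version 7.1. Both samples of an array carried the same scanner file. The authors' deposited value table matched a z-score (a score) of each channel's log10 processed intensity and was used as an alternative. The sample labels carry numbers, and each number of an older age was taken as a separate mouse.

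Mean and background intensities were corrected with normexp (offset 50) and loess in limma 3.58.1 (R 4.3.3); Python 3.11.15 read the files and drew the plots. Outlier spots were left out, replicate spots averaged, and 37448 probes tested, those well above background in Cy5 on all arrays or in Cy3 on all arrays of an age. One mean per age was fitted over all 9 arrays, with Benjamini-Hochberg adjustment over all probes and calls at 0.05; the test was checked on simulated data. Of 41174 probes, 20852 were named through RefSeq accessions and symbols (GRCm38.p6 table). A list gene is represented by its brightest tested probe. Precision is set by having 3 arrays an age.

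The members and gene lists were chosen with earlier results of these data known. Named with values were both genes, 14 fixed genes, up to 4 called genes per list and comparison with the largest change, and 5 genes per probe most like it; other genes were named after their values were seen, and some genes that met the rule are not reported here. Alternatives covered the signals, scaling, filters, samples, covariates and single arrays.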

Additional observations from a re-analysis of the deposited data

Results flagged for a closer look

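The 1 month (Cy5) level of Ccr9 was low on 1 array, that of the 24 month mouse of replicate 1, with a log2 level of 12.15. The nearest of the other 8 arrays read 12.24 and the median was 12.26. The gap was 0.5583 of the whole range, above Dixon's 95% critical value for 9 arrays. It was the 1 probe above that value of 24 examined, and chance marks about 1 in 20 such groups.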

How the results depend on the processing

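Over 18 alternatives on the log2 scale, the difference of the brighter Ccl25 probe between 24 and 6 months ran from 0.36 to 0.77 (limma adjusted p from 0.36 to 0.99). The authors' z-scores, which have another unit and are not in that range, gave 0.241 (limma adjusted p = 0.61). No difference of Ccl25 or Ccr9 between older ages passed the test under any alternative. The 16 against 6 month difference of the second Ccl25 probe turned to 0.0246 on processed signals, 0.0011 on the authors' z-scores and 0.0154 in a fit of the Cy3 channel alone, and ran from -0.1012 to 0.0905 when single arrays were left out. Ccr9 in 24 against 6 months turned to 0.0506 with haemoglobin as a covariate, and in 24 against 16 months to -0.2802 with median centring. Cxcr4 and Selplg at 24 months turned to -0.4037 and -0.2464 with median centring.

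Against 1 month at 6, 16 and 24 months, Ccl25 read -2.4293, -2.1999 and -1.8056 on processed signals, -2.5422, -2.3615 and -2.1851 with median centring, and -1.2975, -1.2736 and -0.8996 without background subtraction. Ccr9 read -0.2051, -0.4574 and -0.7375 with median centring, and 0.332 at 6 months with haemoglobin as a covariate. The second Ccl25 probe read 0.2007 at 24 months with median centring.

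Calls numbered 6219, 9124 and 8034 at the 3 ages. With median centring they were 19627, 16639 and 26550. The replicate block gave 3925 at 6 months and haemoglobin as a covariate 784. A fit of only the ages compared gave 4321 at 16 and 4154 at 24 months, and 1 call in 24 against 6 months, and no background subtraction gave 5226 at 24 months. Leaving out single arrays gave 491 to 6516, 2568 to 9437 and 2348 to 8138 calls, with 2074 and 491 at 6 months without replicates 1 and 2, 2568 and 5055 at 16 months without replicates 2 and 3, and 2348, 4331 and 5058 at 24 months without replicates 1, 2 and 3, each of the age itself. It gave 0 to 4 calls in 16 against 6 months and 0 to 2 in 24 against 6 months. The cause of these shifts was not tested.

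The replicate block changed no call of Ccl25 or Ccr9 (24 against 6 months: adjusted p = 0.52 for Ccl25). Deviations of same-numbered mice correlated from -0.47 to 0.22, over 0.1 in 2 of 9 pairs, so they were taken to share only a number. Thymic epithelial genes called lower numbered 12, 11 and 13 of 26 with median centring, beside 10431, 9757 and 14833 of all 37448 probes. With haemoglobin as a covariate they numbered 4 at 6 months, where calls in both directions over all probes were 784 in place of 6219. For 27 calls of 12 named ligand, receptor and epithelial genes, 486 values under alternatives kept direction and call 439 times, lost the call 45 times and turned sign 2 times. Other called genes were tried under the scalings alone, with the sign turns given beside them. Values against 1 month were not recomputed on z-scores, which have another unit, or in the Cy3 fit, which has no reference, and the second Ccl25 probe drops out of the filter that asks for all arrays above background.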
